A study of Caenorhabditis elegans with 4 samples.

Results

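COH-1 peaks were examined in 2 long intervals of *Caenorhabditis elegans* chromosome IV that are described as its large piRNA gene domains. A peak was a member when it lay on IV in the peak list deposited for the series as a whole (the series list) and its midpoint fell in 4500001-7000000, called the left domain below, or in 13500001-17200000, the right domain. The rule used positions only, with no score, width or replicate. It took 536 of the 15765 series peaks, of which 361 lay in the left domain of 2.5 Mb and 175 in the right domain of 3.7 Mb. The intervals make up 35.4% of the length of IV and hold 21.9% of its 2444 series peaks. All positions are on WormBase WS220, the build named in the file headers.

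Chromatin immunoprecipitation followed by sequencing (ChIP-seq) with a rabbit polyclonal antibody to COH-1 was done on fem-2(b245) hermaphrodites kept at 20 °C. They are labelled young adults with a germline, although the growth protocol speaks of gravid animals. The allele affects fem-2, which acts in male development and sperm formation, and every sample carried it, so no wild-type worms enter any value. Chromatin was fixed with EGS, which links proteins to each other, and formaldehyde. Libraries comprised 2 ChIP replicates and 2 input DNA samples, and the peak lists of the 2 ChIP replicates were used beside the series list. Values of the inputs were not analysed here. The lists carry no read counts, so sequencing depth is unknown. Whether the replicates were separate cultures is not stated, so spread between them may be technical. The replicate 2 list was deposited under a name that also contains csr1, unexplained by the labels, so whether both lists come from like immunoprecipitations was not settled, and each mean of the replicates takes their labels as given. Worms were used whole, so occupancy in fewer cells and weaker occupancy in every cell cannot be told apart.

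Cohesin is a ring-shaped complex that holds sister chromatids together and shapes chromosomes, and COH-1 is one of its kleisin subunits, which close the ring. Worms have several kleisins: SCC-1 serves mitosis, REC-8, COH-3 and COH-4 serve meiosis, and COH-1 belongs to the cohesin of differentiated cells. piRNAs are small RNAs of the germline that are loaded onto the Argonaute protein PRG-1 and direct the silencing of transposons and other foreign sequence. In this species most are transcribed each from a very short gene of its own, and these genes are gathered in broad clusters on IV. The RefSeq gene table of assembly WBcel235 places 14714 of its 15363 piRNA genes (95.8%) on IV, against 202 on V, the next highest. That table is on another build than the peaks, so the borders of the domains could not be set against single piRNA genes and no gene was assigned to a peak.

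The left domain carried COH-1 peaks at somewhat lower density than the rest of IV. The series list held 144 peaks per Mb in it, the replicate 1 list 25.6 (64 peaks) and the replicate 2 list 34.4 (86 peaks), or 30 ± 6.22 per Mb over the replicates (mean ± SD, n = 2). The rest of IV, with 1908 series peaks, stood at 169, 28.5 and 39.2 per Mb in the same order. All 3 lists therefore gave the left domain the lower density, at 0.855 times the rest of IV in the series list and 0.887 ± 0.0148 times in the replicate lists (mean ± SD, n = 2). In bases the gap was wider: series, replicate 1 and replicate 2 peaks covered 7.79%, 6.72% and 8.83% of the left domain, against 10.4%, 9.02% and 11.7% of the rest. The reference chosen matters here, since IV is itself uneven. The 4.5 Mb to the left of the domain held 129 series peaks per Mb and the 6.5 Mb between the domains 196. The left domain was thus denser than the chromosome end beside it, by factors of 1.12 in the series list and 1.23 and 1.12 in replicates 1 and 2, and sparser than the middle of the chromosome. In covered bases it did not exceed that end: the ratio was 0.930 in the series list (7.79% against 8.38%) and 1.00 and 0.998 in replicates 1 and 2.

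COH-1 peaks were scarce in the right domain. It held 47.3 series peaks per Mb, 6.22 per Mb in replicate 1 (23 peaks) and 10.8 in replicate 2 (40 peaks), or 8.51 ± 3.25 over the replicates (mean ± SD, n = 2). That is 0.280 times the rest of IV in the series list and 0.247 ± 0.0407 times in the replicate lists (mean ± SD, n = 2). Series peaks covered 3.23% of the right domain, replicate 1 peaks 2.15% and replicate 2 peaks 3.11%. The right domain was also sparser than the left one, by factors of 3.05 in the series list and 4.12 and 3.18 in replicates 1 and 2. The short end of IV beyond it, 0.294 Mb long, returned to 194 series peaks per Mb, with 20.4 in replicate 1 (6 peaks) and 47.6 in replicate 2 (14 peaks). The right domain was below that end in all 3 lists. Differences between parts of IV are given as values and were not tested.

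**Figure D1:**
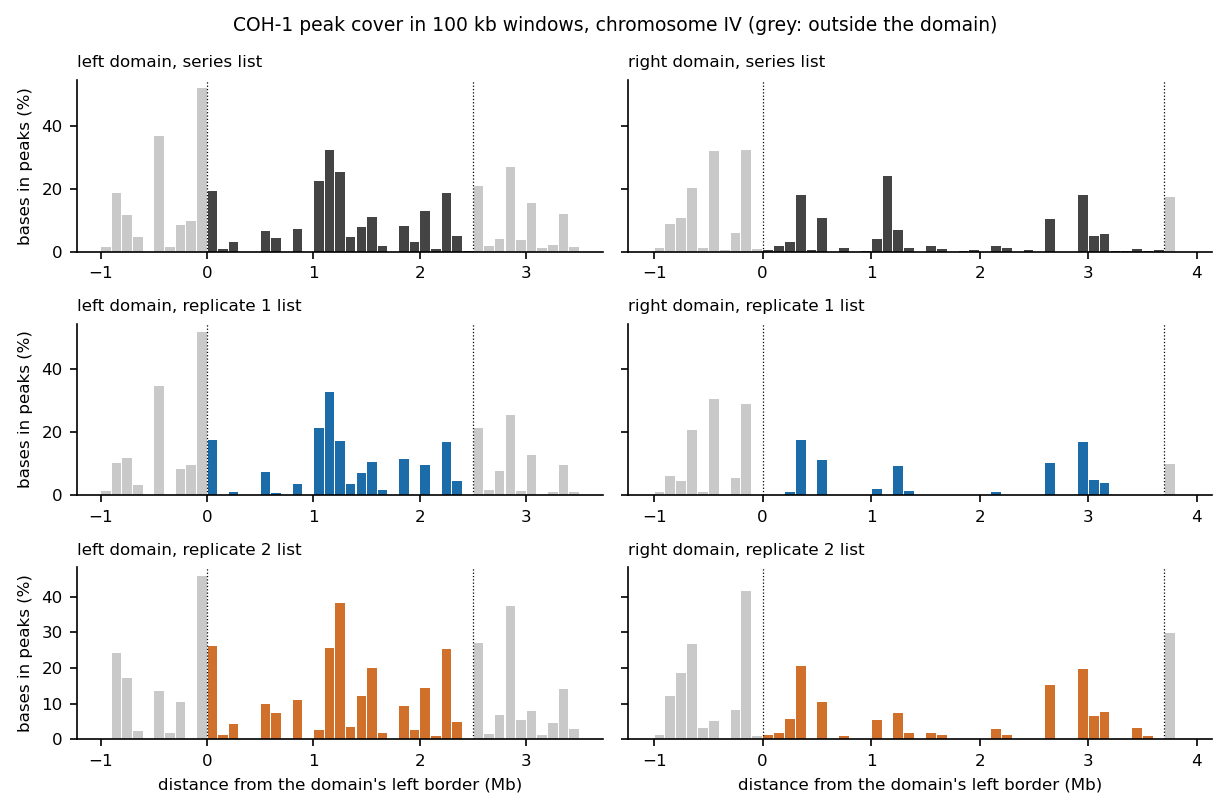
Percentage of bases inside COH-1 peaks (y axis) in 100 kb windows along chromosome IV, against distance in Mb from the left border of each domain (x axis); rows are the series, replicate 1 and replicate 2 lists, dotted lines are the domain borders and grey bars lie outside. The left domain alternates windows of up to 32.2% with empty ones in the series list, while the right domain is mostly near 0 with a few isolated bars of up to 24.0%.

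Density along worm autosomes differs between centres and arms, so each domain was also set against intervals of its own length at the same relative place on I, II, III and V. The left domain had the lowest series density of the 5 autosomes, although V was almost the same. The intervals held 200 series peaks per Mb on I, 190 on II, 247 on III and 144.8 on V, against 144.4 on IV. Relative to the mean of the other 4 (195 ± 41.8, SD), the log2 ratio was -0.44 (exact rank test over 5 autosomes, one-sided p = 0.2, the smallest it can give). In replicate 2, IV was again the lowest and V next, with 34.4 on IV and 34.8 on V (log2 ratio -0.49, exact rank p = 0.2). In replicate 1 the interval on V, at 22.4 per Mb, lay below IV at 25.6 (log2 ratio -0.30, exact rank p = 0.4). In covered bases the left domain was the lowest in the series list, at 7.79% against 10.0% to 17.1% elsewhere (log2 ratio -0.67, exact rank p = 0.2), and in replicate 2, but not in replicate 1, where V stood at 6.22% and IV at 6.72%.

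The right domain shared the bottom of this comparison with V. In the series list the intervals held 47.3 peaks per Mb on IV, 49.7 on V, 81.1 on I, 145 on II and 185 on III (log2 ratio of IV to the mean of the other 4 -1.28, exact rank test, one-sided p = 0.2). Replicate 2 gave 10.8 on IV and 12.4 on V, with 22.7 to 48.9 on the other 3 (exact rank p = 0.2). Replicate 1 gave 6.22 on IV and 5.95 on V, with 12.7 to 30.8 on the others (exact rank p = 0.4). In covered bases V was lower than IV in the series list, at 2.89% against 3.23% (log2 ratio -1.11, exact rank p = 0.4), and IV was lower in both replicates. Neither domain passed 0.05, which a rank among 5 autosomes cannot do. The scarcity of the right domain was therefore not shown to be particular to IV, and the matched interval of V held 1.05 times its series density.

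**Figure D2:**
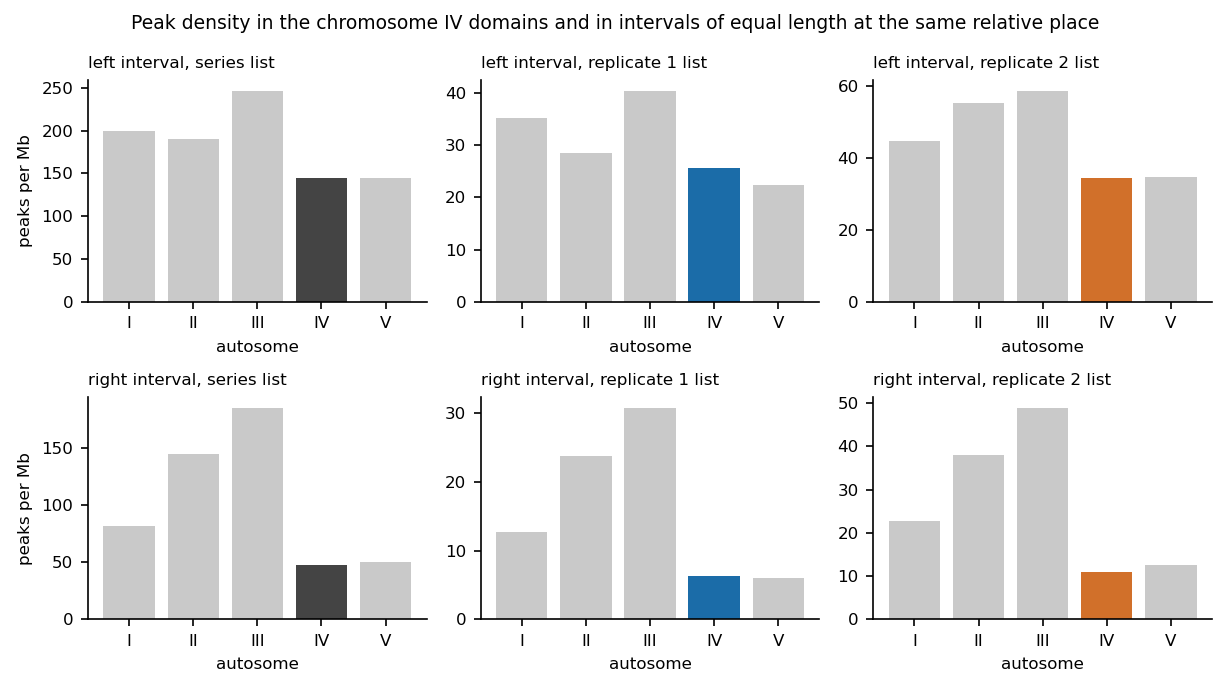
COH-1 peaks per Mb (y axis) in the chromosome IV domains (coloured) and in intervals of equal length at the same relative place on the other autosomes (grey), for the left (upper row) and right (lower row) interval in the series, replicate 1 and replicate 2 lists. Each bar is 1 interval in 1 list; IV and V are the 2 lowest bars in every panel.

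Inside the left domain, COH-1 peaks formed dense islands separated by long empty stretches. Joining members at most 5 kb apart gave 46 groups, and the 17 groups of 10 or more peaks held 281 of the 361 members (77.8%) in 13.6% of the domain's length. Such grouping was ordinary for IV, where groups of 10 or more held 74.0% of the peaks outside the domains and 76.9% of those between them. The large left groups spanned 9.20 to 37.0 kb. Of the 25 windows of 100 kb, 5 held no peak in any list and 8 held 20 or more members, and the median was 15. The middle of the domain was the fullest: from 5500001 to 6000000 there were 240 series peaks per Mb, with 18.5% of bases in series peaks, 16.4% in replicate 1 and 16.4% in replicate 2. From 4500001 to 5000000 there were 82, with 4.61%, 3.77% and 6.27% of bases. The windows with the most members started at 5700001 and 6700001, with 41 each, and those starting at 5600001 and 5700001 were the most covered, at 32.2% and 25.3% in the series list.

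Peak-free stretches took up most of the left domain. Stretches of 50 kb or more with no peak in any list numbered 11 and amounted to 56.8% of its length, against 41.9% of the rest of IV. That rest was uneven, with 52.8% to the left of the domain and 34.2% between the domains. The longest, from 4784586 to 5078924, measured 294 kb, and no peak-free stretch of the rest of IV was longer than 166 kb. The next, from 5144886 to 5374203, measured 229 kb. In the matched intervals the same share was 37.9% on I, 28.7% on II, 30.2% on III and 50.2% on V, all below the left domain.

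In the right domain the islands were fewer and single peaks were common. There, 41 groups were found, of which 21 were single peaks, making 12.0% of members against 3.05% in the left domain and 3.93% in the rest of IV. The 6 groups of 10 or more peaks held 98 of the 175 members (56.0%) in 3.36% of the length. A 100 kb window held a median of 2 members, none held 20, and 9 of the 37 windows had no peak in any list. At most 2 members were found in 51.4% of windows, against 24.0% in the left domain, 16.1% in the rest of IV and 19.6% on I, II, III and V together. That last share is over whole chromosomes, centres included, and windows of the matched intervals were not counted. Replicate 1 had no peak base in 26 of the 37 windows and replicate 2 in 17. The window with the most members, 19, started at 14700001, and those starting at 13800001 and 14600001 followed with 17 each. A long sparse part ran from 15000001 to 16000000: its first and last 500 kb held 12 members each, with 0 and 1 peaks in replicate 1 and 2 and 4 in replicate 2. The last 200 kb of the domain were sparser still, with 3 members, no replicate 1 peak and 1 replicate 2 peak.

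Peak-free stretches of 50 kb or more filled 82.7% of the right domain, as 21 stretches. The longest was 287 kb, from 16183583 to 16470743, followed by 232 kb from 15932198 to 16164694. They were parted by the island at 16164830 to 16183582, which held 16 members. On V the matched interval was emptier still, at 84.7%, while I stood at 70.9%, II at 42.5% and III at 39.0%.

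**Figure D3:**
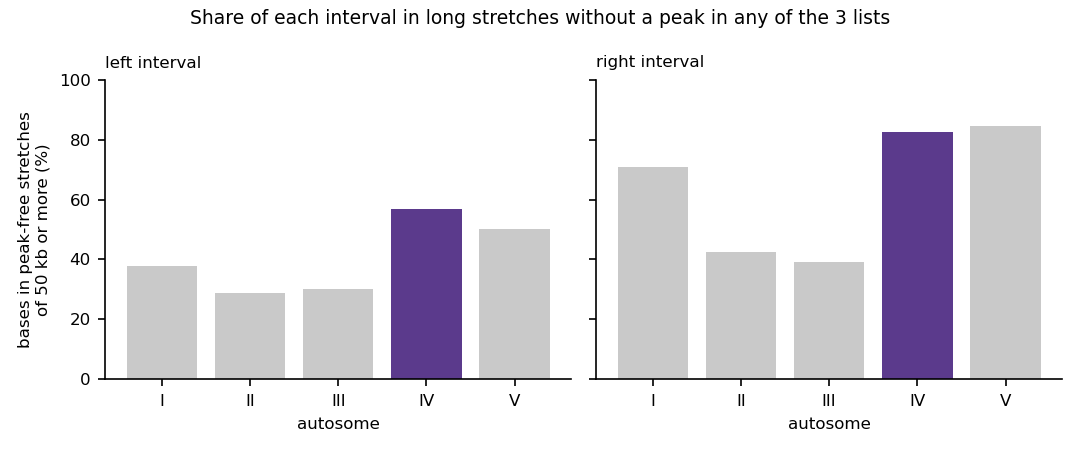
Percentage of each interval's bases (y axis) that lie in stretches of 50 kb or more without a peak in any of the 3 lists, for the left and right intervals on the 5 autosomes (x axis; IV coloured). The left domain, at 56.8%, is above the other 4, and the right domain, at 82.7%, is second to V at 84.7%.

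Single peaks in the domains were of ordinary size and score for the series list. Median width was 318 bp in the left domain, 296 bp in the right domain and 323 bp in the rest of IV in the series list. In replicate 1 the medians were 1769 bp on the left, 2118 bp on the right and 2043 bp elsewhere on IV, and in replicate 2 they were 1486, 1346 and 1616 bp. The right domain was the narrowest in the series and replicate 2 lists and the widest in replicate 1. Peaks of 5 kb or more numbered 3 in each domain, 0.831% of the left members (exact 95% interval 0.172 to 2.41) and 1.71% of the right ones (0.355 to 4.93), against 1.36% of all series peaks. These intervals cover counting error only and treat neighbouring peaks as independent, which they are not.

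Each peak carries a score from the authors' caller that no source defines, so scores were read only as ranks within a list. Median series score was 5.33 in the left domain, 5.18 in the right and 5.79 in the rest of IV. In the same order the medians were 141, 195 and 166 in replicate 1 and 245, 348 and 359 in replicate 2. The left domain was below the rest of IV in all 3 lists, a difference that was not tested. It was not the lowest of the matched left intervals in any list. Lower medians stood on V in the series list (4.87), on I and V in replicate 1 (131 and 112) and on II in replicate 2 (227). Of the left members 82 (22.7%, exact 95% interval 18.5 to 27.4) and of the right members 45 (25.7%, 19.4 to 32.9) were in the top 25% of series scores, which takes 24.9% of all series peaks after ties. Replicate 1 placed 9 of its 64 left peaks (14.1%, 6.64 to 25.02) and 6 of its 23 right peaks (26.1%) in its own top 25%. Replicate 2 placed 21 of 86 (24.4%) and 9 of 40 (22.5%). The 3 intervals given include the share of the whole list, 24.9% in the series and 25% in replicate 1. No shift in that share was therefore detectable at these numbers. The left replicate 1 share was still the lowest of the 5 matched intervals, with 17.0% to 30.7% on the others (exact rank p = 0.2). In the series and replicate 2 lists the left share ranked 3 of 5.

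In the series list, gaps between neighbours had similar medians inside and outside the domains, but fewer right neighbours were close. The median gap between neighbouring members was 473 bp in the left domain, 510 bp in the right and 451 bp in the rest of IV in the series list. The next peak lay within 5 kb for 87.5% of left neighbours (exact 95% interval 83.6 to 90.7) and 77.0% of right neighbours (70.0 to 83.0), against 86.1% over the whole series list. The right domain had the lowest such share of the 5 matched intervals, which ran from 79.8% to 86.5% on the others (exact rank p = 0.2). The replicate lists did not repeat that order. In replicate 1 the shares were 65.1% on the left and 50% on the right, against 55.2% over its list, and in replicate 2 they were 57.6% and 56.4%, against 60.5%. Among the matched intervals the right domain then ranked 3 of 5 from the lowest in replicate 1 and 2 of 5 in replicate 2. Median gaps in replicate 1 were 1735 bp on the left, 8576 bp on the right and 2790 bp in the rest of IV. In replicate 2 they were 2389, 3902 and 2328 bp. Among these parts of IV the right median gap was the longest in each list, over 22 gaps in replicate 1 and 39 in replicate 2. The matched interval on V had a longer median gap in every list: 894 bp in the series, 84592 bp in replicate 1 and 6040 bp in replicate 2. In the series list the right median ranked 2 of 5 from the lowest among the matched intervals.

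Members of the left domain were found in the replicate lists at shares near those of the whole series list. Both replicate lists overlapped 139 of the 361 left members by at least 1 bp (38.5%, exact 95% interval 33.5 to 43.7), against 36.2% of all series peaks and 34.7% in the rest of IV. Neither list overlapped 86 (23.8%, 19.5 to 28.6), against 27.8% of all series peaks. Replicate 1 overlapped 45.4% of left members and replicate 2 69.3%, against 42.6% and 65.7% of the whole list. The matched intervals ran from 29.6% to 47.0% in both lists, so IV lay inside their range. Series peaks may rest on the same reads as the replicate lists, so these shares are no independent support for a peak.

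Of the right members, 39.4% were missing from both replicate lists, and 17 of these 69 formed 1 run. Both lists overlapped 54 of 175 right members (30.9%, exact 95% interval 24.1 to 38.3), against 36.2% of all series peaks. Neither overlapped 69 (39.4%, 32.1 to 47.1), against 27.8% of all series peaks. The difference from the left domain was not tested. The share in neither was the highest of the 5 matched intervals, where the others ran from 27.8% to 38.6% (exact rank p = 0.2). Among members in the top 25% of series scores the gap was plainest: 15 of 45 right members were in neither list (33.3%, 20.0 to 49.0), against 5 of 82 left members (6.10%), 34 of 497 in the rest of IV (6.84%) and 8.22% over the series list. A run of 17 consecutive members from 14600432 to 14627323, with neighbours at most 5 kb apart, held 11 of those 15. Without that run, singled out after its values were seen, 4 of 34 strong right members were in neither list (11.8%, 3.30 to 27.5) and so were 32.9% of all right members (25.7 to 40.8). That 32.9% lay below the matched intervals of I (35.7%) and V (38.6%), from which no run was removed.

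**Figure D4:**
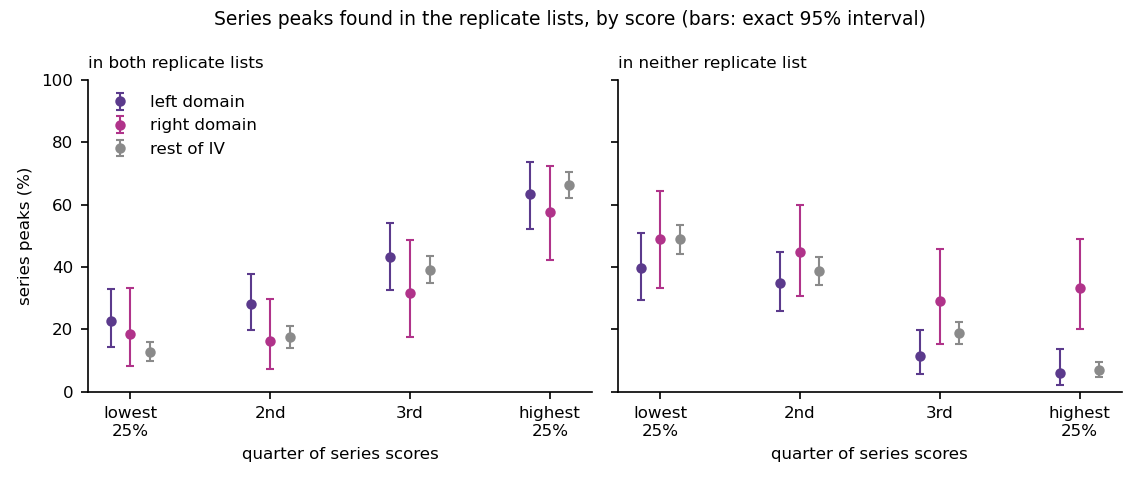
Percentage of series peaks (y axis) found in both replicate lists (left panel) or in neither (right panel), by score class of the series list in steps of 25% of peaks (x axis), for the left domain, the right domain and the rest of IV; bars are exact 95% binomial intervals. Recovery in both lists rises with each score class in the left domain and the rest of IV. In the right domain it is 18.6% in the lowest class and 16.3% in the next, then rises to 57.8% in the highest. The right domain stands apart in the highest class of the right panel, at 33.3% against 6.10% and 6.84%.

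Seen from the replicate lists, the exact intervals for peak overlap in each domain included the share of the whole list. Replicate 2 overlapped 22 of the 23 replicate 1 peaks in the right domain (95.7%, exact 95% interval 78.1 to 99.9) and 55 of the 64 in the left (85.9%, 74.98 to 93.4), against 87.1% of the replicate 1 list. Replicate 1 overlapped 17 of the 40 right replicate 2 peaks (42.5%, 27.0 to 59.1) and 41 of the 86 left ones (47.7%, 36.8 to 58.7), against 51.2% of the replicate 2 list. Among the matched intervals, the right share of replicate 1 peaks, 95.7%, was the highest, with 83.0% to 94.3% on the others (exact rank p = 0.2). In bases, 94.8% of the right replicate 1 sequence was shared with replicate 2, and 72.1% of the left. The rest of IV stood at 75.4%, below the right domain. Of the replicate 2 sequence, 65.5% was shared on the right, 54.8% on the left and 58.0% in the rest of IV. Across 100 kb windows the covered percentages of the replicates correlated with Spearman's rho 0.87 over the 25 left windows and 0.83 over the 37 right ones (Pearson's r 0.76 and 0.96). These are descriptions over neighbouring windows of the same 2 libraries, and many right windows are at 0 in both.

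The strongest left members that both replicates found were mostly parts of broad islands, with 1 exception. The highest-scoring member that both replicates found, 4783798 to 4784192, was 395 bp wide with a series score of 77.9. Replicate 1 gave it a peak of 1171 bp (score 336 in that list) and replicate 2 one of 1163 bp (2148). It bordered the longest empty stretch of the domain, and the previous series peak lay 32621 bp away. The next member, 4565402 to 4567715 (score 29.8), lay in a replicate 2 peak of 7742 bp. Members at 6551833 to 6553225 (29.0) and 6548483 to 6551557 (27.6) shared a replicate 1 peak of 4814 bp and a replicate 2 peak of 5713 bp. The fifth, 5755392 to 5759061 (28.1), lay in a replicate 2 peak of 18484 bp. The strongest members found in neither list, 4725469 to 4725694 (29.9) and 4727889 to 4728131 (22.7), were both narrow and lay 2194 bp apart.

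The replicates parted over the most covered island of the left domain, 5578004 to 5615029. Series peaks covered 88.3% of it and replicate 1 peaks 92.6%, while replicate 2 peaks covered 4.58%, at its right end. None of its 16 members was in both replicate lists and none was in neither. It held the widest member, 5602193 to 5612049 (9857 bp, series score 58.8), under a replicate 1 peak of 20414 bp. The replicate 1 peak with the highest score in the domain and no partner, 5584002 to 5591997 (2753), also lay here. Conversely, replicate 1 had no peak base in the islands at 5126656 to 5144885 and 5712053 to 5723951, where replicate 2 covered 36.0% and 61.8%. The unpartnered replicate 2 peak with the highest score was 5384154 to 5387312 (1580). The second widest member, 5657978 to 5663858 (5881 bp), lay in peaks of both lists.

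Both replicates found 26 of the 45 right members in the top 25% of series scores (57.8%, exact 95% interval 42.2 to 72.3), and the strongest of those are named here. The leading one, 14029281 to 14037326 (8046 bp, series score 73.1), was also the widest member. It was matched by a replicate 1 peak of 8516 bp with a score of 2991, the highest of that list in the domain. Its replicate 2 peak of 9224 bp scored 3100, a value that 373 peaks of that list carry, 3 of them in this domain. The next, 14592334 to 14594721 (67.1), had peaks of 2122 and 3402 bp. The member at 13884998 to 13889740 (40.2) lay in peaks of 14108 and 14660 bp. The 3 other named members, 16497499 to 16503525 (43.0), 16489638 to 16490622 (35.9) and 16490799 to 16497377 (31.4, the second widest), were neighbours on 1 island under a replicate 2 peak of 22089 bp. Series, replicate 1 and replicate 2 peaks covered 75.9%, 72.3% and 85.9% of that island, 16476131 to 16506070. The single replicate 1 peak without a partner, 14786394 to 14787384, scored 54.3 in that list, whose lowest score is 50.03. The strongest unpartnered replicate 2 peak was 13693507 to 13695087 (727).

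The island at 14591727 to 14627323 was the largest of the right domain, with 22 members over 35.6 kb, and the replicates saw only its left end. Series peaks covered 78.2% of it, replicate 1 peaks 5.96% and replicate 2 peaks 15.1%. The run of 17 members that neither list overlapped covered 24.0 kb, or 89.3% of its own span. Its strongest members, 14604532 to 14606017 (28.9) and 14622902 to 14625770 (28.0), stood at percentiles 97.1 and 96.8 of the series scores. The nearest replicate 2 peaks to them lay 4520 and 22890 bp away.

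**Figure D5:**
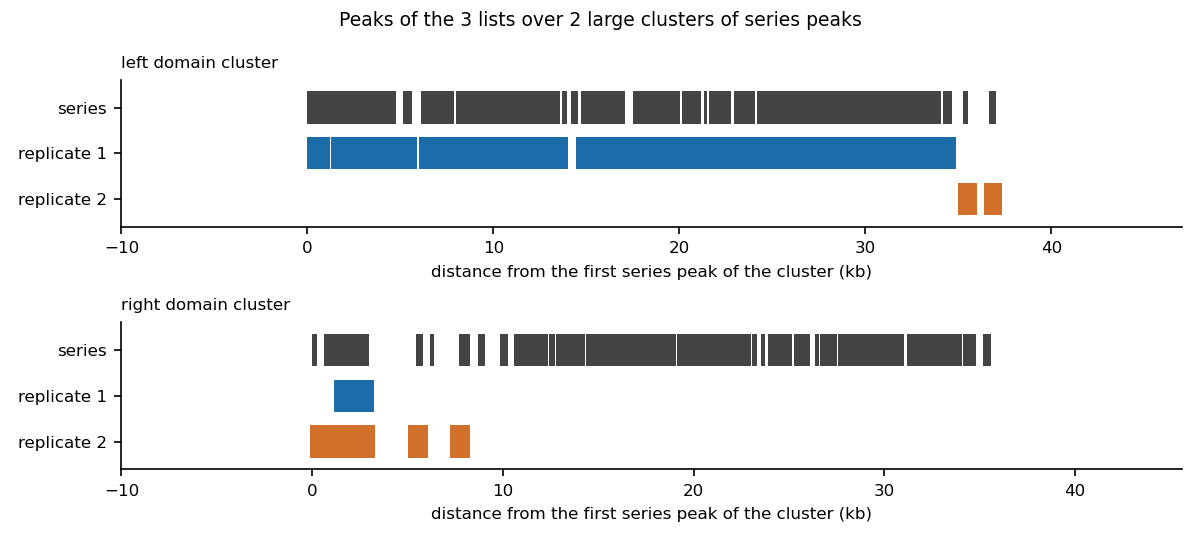
Peaks of the series, replicate 1 and replicate 2 lists (rows) over 1 island of each domain, against distance in kb from the island's first series peak (x axis). In the left domain island replicate 1 covers 92.6% and replicate 2 4.58%. In the right domain island both replicate lists stop short of the run of series peaks on its right, which spans 26.9 kb with 24.0 kb inside peaks.

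Counted over 250 kb, the step in peak number at the borders differed between the domains. In the 250 kb inside and outside the left domain, the series list held 39 and 50 peaks at its left border and 52 and 39 at its right border. Over that span neither border of the left domain was a sharp drop, and replicate 2 counted more peaks inside than outside at its left border (10 and 6). The 100 kb nearest its right border held 1 series peak inside and 21 outside. At the left border of the right domain there were 15 series peaks inside and 47 outside, with 1 and 10 in replicate 1 and 6 and 11 in replicate 2. No step lay at that border itself: the nearest 100 kb held 2 series peaks on either side. Of the 47 outside, 38 lay from 13300001 to 13400000. At the right border of the right domain there were 3 inside and 45 outside, with 0 and 5 in replicate 1 and 1 and 11 in replicate 2. Over 250 kb, peaks were fewer inside the right domain at both borders in all 3 lists. The members nearest the 4 borders, in order along IV, scored 4.87, 4.14, 2.46 and 5.18, and the peaks just outside 5.49, 5.80, 4.10 and 8.58.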

How the data were processed

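Peak positions and scores of COH-1 ChIP-seq were used as deposited by the authors, in 2 replicate lists and a list of the whole series. The submitters' processing notes name BWA and ce10 for the alignment, and the build in the file headers is WormBase WS220. The source column names MACS for the replicate lists and MACS v2 for the series list. How the peaks were thresholded, whether the inputs entered and whether replicates were pooled is not stated in these sources. The deposited score is the authors' caller's own value and its scale is not stated. Other thresholds would change every density here, and mappable sequence was not examined.

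Everything else was computed with Python 3.11.15, NumPy 2.4.6, pandas 2.3.3, SciPy 1.17.1 and matplotlib 3.10.9. Peaks were placed by midpoint, and overlap meant at least 1 bp. Chromosome length was the largest peak end in any list. A matched interval had the domain's length and split the remaining chromosome in the same proportion. IV was ranked among 5 autosomes by an exact one-sided rank test, whose smallest p is 0.2. Exact intervals are Clopper-Pearson at 95%. Density ratios were checked on simulated lists. Named regions were, per domain, the 5 highest-scoring members in both replicate lists, the 2 widest, the 2 strongest in neither, the strongest unpartnered peak of each replicate, the 2 longest empty stretches, and the 2 windows with most members and most cover (ties included). Islands and the run in neither list were chosen for description after their values were seen. The members and these choices were made with earlier results of these data known.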

Additional observations from a re-analysis of the deposited data

How the results depend on the processing

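Of 55 alternatives, the 36 against the other autosomes and the 10 against the rest of IV reversed no direction. The other 9 changed the share in both replicate lists, which has no direction to reverse. The stretch of IV to the left of the left domain, against which the left domain was denser, was not among the alternatives. Of the 10 against the rest of IV, 6 moved the log2 ratio by at least its SD between the replicate lists, among them every left one. Against the other autosomes, 36 alternatives kept each domain below the mean of the other 4: log2 ratios of density ran from -0.52 to -0.30 on the left and from -1.56 to -1.03 on the right, including mirrored and scaled intervals and domain borders moved in by 250 kb, but no rank among 5 autosomes can pass 0.05. Leaving out the run of 17 members, an alternative chosen after seeing the data, was done on IV alone. It can only lower the density and cover of IV, so it says nothing of the direction or the rank.

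Against the rest of IV, the left log2 ratio of density (-0.23) was -0.35 with the upper 50% of scores, -0.18 with peaks within 500 bp merged, -0.44 against the stretch between the domains, and -0.19 to -0.16 with either replicate list alone. The right ratio (-1.84) was -2.20 to -1.86 with either replicate list alone. Restricting members to the upper 50% of scores raised the share in both replicate lists to 52.3% on the left and 45.3% on the right. No paired analysis was possible because the input samples, the other labelled group, had no list among the files used, and the ratios to the rest of IV, given within each replicate list, come from no test. Depth is unknown, so an empty stretch shows no called peak, not the absence of COH-1.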

Other observations

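The window 14600001 to 14700000 of the right domain stood out from other windows when the 998 windows of 100 kb on the 6 nuclear chromosomes were screened after the values had been seen. In 209 of them each replicate list covered under 1% of bases. Among these, this window had the highest series cover, 24.0%, and the next had 11.5%. Replicate 1 covered 0% of it and replicate 2 0.011%. The run of 17 peaks in it ranked 2 of 2636 such runs in the series list by number of peaks and 6 by bases covered.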
